A study of Rattus norvegicus with 5 samples.

Results

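The immediate-early genes Egr1, Fos, Jun, Junb, Atf3, Ier2, Ier3 and Klf6 were examined in rat liver, with the question of whether a difference seen in Egr1 between 2 strains was shared by the others. The genes were chosen by name. Egr1 was included because it was already known to be among the largest rises in these arrays, so the strain differences of these genes, their intervals and whether the array-wide fit called them are given as descriptions, with no test of the group. Of the 8 genes, 7 were measured, each by a single probe set with 1 gene symbol, out of 8797 probe sets and 7589 named genes. Fos had no probe set under its symbol in the platform annotation and was not analysed here.

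Liver RNA came from 4-month-old male rats on standard chow. The groups were PD, the polydactylous progenitor strain, and the congenic strain PD.SHR4 (PD.SHR4a in the series text), which carries a segment of chromosome 4 of the Cd36-deficient spontaneously hypertensive rat on the PD background. The RNA of 8 rats per strain was used, and the labelled cDNA was pooled by strain before hybridisation to 3 PD arrays and 2 PD.SHR4 arrays. Differences between arrays of a strain may therefore be technical, and they do not measure the spread between rats. In whole liver, a change in the share of a cell type and a change in RNA per cell cannot be told apart. None of the 8 genes lies on chromosome 4 in the RefSeq annotation of assembly GRCr8.

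Immediate-early genes are switched on by growth factors, stress or feeding without the need for new protein synthesis, and their transcripts are short-lived. Signals that run through the ERK kinases and the serum response factor (SRF), which binds CArG boxes, or through kinases that act on CREB at cyclic AMP response elements (CRE), reach their promoters within minutes. In liver they respond to regeneration, injury, hormones and food. Egr1 encodes a zinc finger factor, Fos, Jun, Junb and Atf3 encode bZIP proteins that pair with each other or with related proteins (the AP-1 family), and Klf6 encodes a Krüppel-like zinc finger factor. Ier2 encodes a nuclear protein, and Ier3 a stress-regulated protein that affects cell survival.

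RefSeq promoter sequences of build GRCr8 were at hand for 4 of the 8 genes, Egr1, Junb, Ier2 and Klf6. The 250 bases before the start of 3 of them are given here, 5′ to 3′ on the strand of the gene, because Egr1 and Klf6 share a motif class and Ier2 holds the complete CRE. Capitals mark CArG boxes and the CRE core TGACG or its reverse complement. The windows are chr18:26736828-26737077 on the plus strand for Egr1, chr17:69458479-69458728 on the minus strand for Klf6 and chr19:40399123-40399372 on the plus strand for Ier2.
Egr1: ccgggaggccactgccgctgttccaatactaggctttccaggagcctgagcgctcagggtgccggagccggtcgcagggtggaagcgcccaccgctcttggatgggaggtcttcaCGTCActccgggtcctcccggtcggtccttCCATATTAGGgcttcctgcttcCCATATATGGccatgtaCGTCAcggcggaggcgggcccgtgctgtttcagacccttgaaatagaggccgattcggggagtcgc
Klf6: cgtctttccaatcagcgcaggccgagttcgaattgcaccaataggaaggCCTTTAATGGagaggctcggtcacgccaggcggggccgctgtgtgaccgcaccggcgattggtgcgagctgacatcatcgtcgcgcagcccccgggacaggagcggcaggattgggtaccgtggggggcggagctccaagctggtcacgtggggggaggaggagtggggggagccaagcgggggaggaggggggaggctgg
Ier2: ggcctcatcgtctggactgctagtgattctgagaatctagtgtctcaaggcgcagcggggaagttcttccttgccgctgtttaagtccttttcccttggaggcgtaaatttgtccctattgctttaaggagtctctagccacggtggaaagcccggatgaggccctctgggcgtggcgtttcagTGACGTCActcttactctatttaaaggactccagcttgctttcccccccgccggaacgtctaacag

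The Egr1 window held 2 CArG boxes, CCATATTAGG from 105 to 96 bases and CCATATATGG from 83 to 74 bases before the start. It also held 2 CRE cores on the opposite strand, from 135 to 131 and from 66 to 62 bases before the start. The Klf6 window held 1 CArG box, CCTTTAATGG, from 201 to 192 bases before the start. Ier2 held the complete palindromic CRE, TGACGTCA, from 66 to 59 bases before the start, and this match contains 2 overlapping cores. Junb, not shown, held 1 CRE core and no CArG box. Both strands were searched. Of 33469 promoter windows of the same length, 1.50% held a CArG box, 1.59% the complete CRE and 18.2% the CRE core. The AP-1 motif TGANTCA, present in 6.34% of all windows, and the EGR motif GCGNGGGCG, present in 4.29%, had no match in any of these 4 windows. These are matches of letters, not measured binding.

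Egr1, the gene known to be higher in the congenic strain, stood beside 6 measured genes with much smaller differences. The fit across all probe sets (limma, Benjamini-Hochberg adjusted p under 0.05) called 1 of the 7 genes, Egr1, which restates the value it was chosen for. Across the array 0.932% of probe sets were called in either direction, 0.273% as higher and 0.659% as lower. The median log2 difference, PD.SHR4 minus PD, was 0.16 over the 7 genes and 0.11 over the 6 without Egr1, and the median of all probe sets was 0.000197. Without congenic array 2 the median of the 6 was -0.049, and it was 0.028 when PD array 1 and 0.052 when PD array 3 was left out. Congenic array 1 left out gave 0.17. Of the 7 differences, 5 were above 0 and 2 below. The lowest was -0.43 for Atf3 and the highest after Egr1 was 0.50 for Junb.

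On the log2 scale, Egr1 was at 5.94, 6.25 and 5.46 on PD arrays 1 to 3, against 9.06 and 8.63 on congenic arrays 1 and 2. Both congenic arrays lay above every PD array. The strain means were 5.88 ± 0.40 (SD, n = 3) and 8.85 ± 0.31 (SD, n = 2). The difference was 2.96 ± 0.26 (SE), or 7.79-fold, with a 95% interval of the fit from 2.31 to 3.61. It was the 4th largest rise among the 8797 probe sets. The call rested on few arrays: it was lost when PD array 1 was left out (log2 difference 2.99), when congenic array 1 or 2 was (2.74 and 3.18), and with no variance shrinkage.

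**Figure D1:**
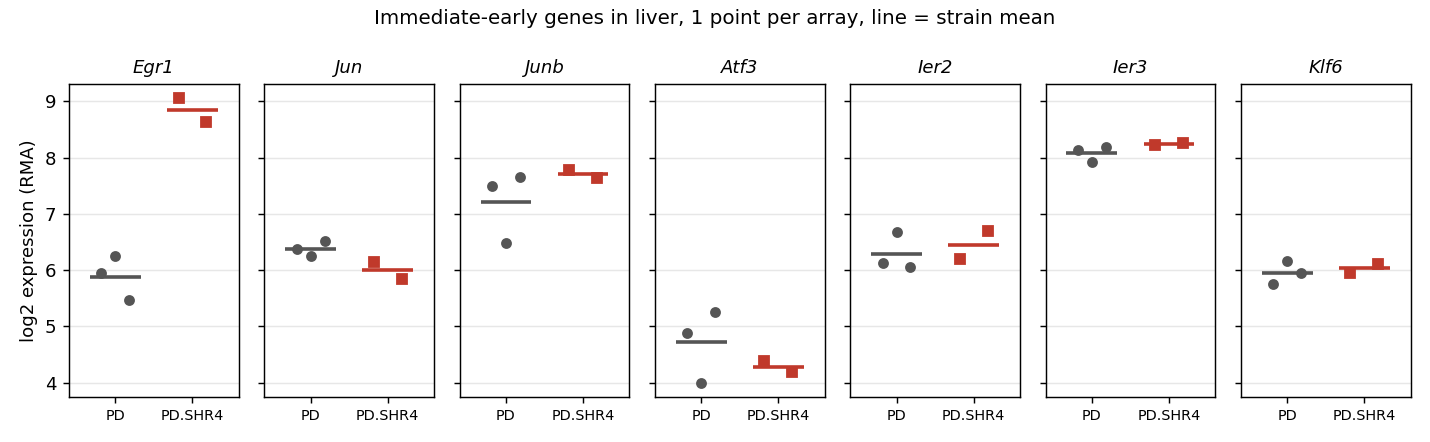
Log2 expression (vertical axis, RMA values) of the 7 measured immediate-early genes in PD (circles, 3 arrays) and PD.SHR4 (squares, 2 arrays), with a line at each strain mean. Egr1 moves from between 5.46 and 6.25 to between 8.63 and 9.06, while the points of the other genes stay close to or among those of PD.

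Among the AP-1 genes, Jun encodes the main partner of Fos. Jun was at 6.37, 6.25 and 6.52 in PD, against 6.14 and 5.85 on the congenic arrays. Both congenic arrays were below all PD arrays, a direction opposite to that of Egr1. The difference was -0.38 ± 0.15 (SE), with an interval from -0.75 to -0.01, and 17.6% of all probe sets had a larger difference in either direction. Jun was not called. Of the 7 genes, 2, Egr1 and Jun, had an unadjusted p under 0.05 (limma; 13.8% of all probe sets). The Jun difference stayed below 0 in 12 of 12 alternative fits, between -0.53 and -0.24.

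Junb, whose product can replace that of Jun in AP-1 and often opposes it, was at 7.50, 6.48 and 7.65 in PD, against 7.78 and 7.64 on the congenic arrays. The congenic arrays overlapped the upper PD arrays, and PD array 2 stood apart as low. The difference was 0.50 ± 0.36 (SE), with an interval from -0.38 to 1.38. Without PD array 2 it was 0.14. The size of the Junb difference thus depended on that array.

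Atf3 encodes a stress-induced repressor of the ATF/CREB family. It was at 4.89, 4.00 and 5.26 in PD, against 4.38 and 4.19 on the congenic arrays. Both congenic values fell inside the PD range. The difference was -0.43 ± 0.36 (SE), and its interval ran from -1.33 to 0.47. Leaving out PD array 2 moved it to -0.79, leaving out PD array 3 or using the replicate block to -0.16, and array weights to -0.86.

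Klf6 was at 5.76, 6.17 and 5.94 in PD, against 5.95 and 6.11 on the congenic arrays. The congenic values lay inside the PD range, at a difference of 0.072 ± 0.16 (SE) and an interval from -0.32 to 0.46. The Klf6 window given above held 1 CArG box and no CRE core, and that of Egr1 held 2 CArG boxes and 2 CRE cores. Whether these motifs bear on the difference of either gene was not tested.

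Ier2 was at 6.13, 6.67 and 6.06 in PD, against 6.20 and 6.69 on the congenic arrays. The strains overlapped, with 1 low and 1 high array in the congenic strain. The difference was 0.16 ± 0.25 (SE), with an interval from -0.45 to 0.77.

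Ier3 was at 8.13, 7.92 and 8.19 in PD, against 8.23 and 8.26 on the congenic arrays. Both congenic arrays were above all PD arrays, by a small margin. The difference was 0.16 ± 0.13 (SE), or 1.12-fold, and the interval ran from -0.16 to 0.48.

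Arrays without overlap were thus seen in 3 of the 7 genes, 2 higher (Egr1 and Ier3) and 1 lower (Jun) in the congenic strain. Of all probe sets, 31.9% had no overlap, 14.8% with the congenic arrays higher and 17.1% with them lower. The 95% intervals of the 6 other genes ended at 1.38 or below, and that of Egr1 began at 2.31. None of the 6 was called in any of the 12 alternative fits. The intervals of Junb, Atf3, Ier2, Ier3 and Klf6 reached 0.46 or higher, so smaller rises in these genes could not be told from none with 5 arrays. All these intervals reflect the spread between arrays of pooled cDNA and leave out that between rats.

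**Figure D2:**
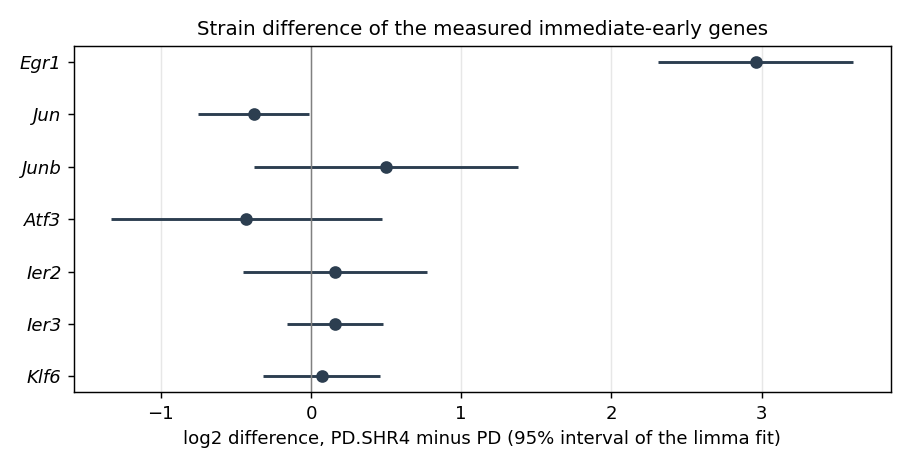
Log2 difference (horizontal axis, PD.SHR4 minus PD) of each measured gene as a point, with the 95% interval of the limma fit as a line. Egr1 lies at 2.96, and the intervals of the other 6 genes end at 1.38 or below.

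Differences between genes inside an array do not depend on adding a constant to that array. The log2 value of Egr1 minus the median of the other 6 genes was -0.31, -0.11 and -0.82 in PD, against 2.89 and 2.23 on the congenic arrays. The median of the other 6, which does shift with such a constant, was 6.25, 6.36 and 6.29 in PD and 6.17 and 6.40 in the congenic strain. The first quantity differs between strains by the choice of Egr1, and the median of the other 6 overlapped between strains.

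Arrays of a strain shared pooled cDNA, so deviations between them may be technical and do not show whether genes are regulated together. In PD array 2, Junb and Atf3 were low, with log2 deviations of -0.73 and -0.71 from their PD means. In the same array Egr1 was 0.37, Ier2 0.39 and Klf6 0.21 above theirs. PD array 2 had the highest overall median of the 5 arrays, 5.38 against 5.21 to 5.26 in the others. Centred on the array medians, its deviations were -0.82 for Junb, -0.81 for Atf3, 0.27 for Egr1 and 0.29 for Ier2, so the opposite signs remained. In the congenic strain, array 1 was the higher for Egr1, Jun, Junb and Atf3, and array 2 for Ier2, Ier3 and Klf6, and with 2 arrays the deviations are equal and opposite by construction.

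The spread between arrays of a strain was large for several of these genes. Residual SDs were 0.53 for Atf3, 0.52 for Junb, 0.37 for Egr1 and 0.34 for Ier2, larger than in 95.5%, 95.2%, 87.8% and 85.1% of all probe sets. Klf6 (0.18), Jun (0.16) and Ier3 (0.11) were near or below the median of all probe sets, 0.174. The median over the 7 genes was 0.342. Atf3 and Junb also had the widest intervals of the 7 genes.

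**Figure D3:**
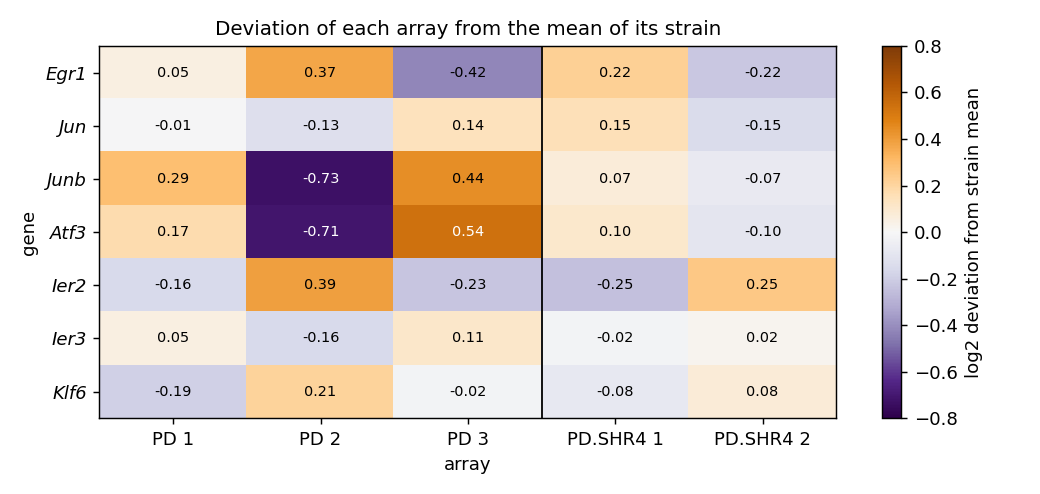
Deviation of each array (columns) from the mean of its strain, in log2 units, for the 7 measured genes (rows), with the value printed in each cell and the strains separated by a line. In PD array 2, Junb and Atf3 are low at -0.73 and -0.71 while Egr1 and Ier2 are high at 0.37 and 0.39.

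The wider immediate-early transcription factors did not pass the test in either direction. Of 25 listed, 20 were measured, 8 had values above 0 and 12 below, with a median log2 difference of -0.085. At an unadjusted p under 0.05 (limma) there were 2 of the 20, and 13.8% of all probe sets (1211) were past that level. Egr3, a paralogue of Egr1, was at 3.97, 3.35 and 3.93 in PD, against 4.58 and 4.38 on the congenic arrays, without overlap (0.73 ± 0.22 SE; adjusted p = 0.225, limma). The other paralogues, chosen after their values were seen, were Egr2 at -0.11 ± 0.15 (SE) and Egr4 at 0.21 ± 0.23 (SE), both with overlapping arrays. Id2, an inhibitor of basic helix-loop-helix factors, was at -0.73 ± 0.23 (SE; adjusted p = 0.233, limma) and Ier5, a stress-responsive relative of Ier2, at -0.30 ± 0.12 (SE; adjusted p = 0.375, limma). Of the remaining AP-1 genes, also chosen after their values were seen, Jund was at -0.24 ± 0.12 (SE) and Fosl1, the measured relative of Fos, at -0.048 ± 0.22 (SE).

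Immediate-early genes that encode effectors rather than transcription factors gave the same count of 0. Of 35 listed, 27 were measured, 13 above 0 and 14 below, with a median of -0.0065, and 5 had an unadjusted p under 0.05 (limma; 13.8% of all probe sets). Dusp5, a phosphatase that switches off nuclear ERK, measured 0.67 ± 0.21 (SE; adjusted p = 0.248, limma). Btg1, an antiproliferative gene, measured -0.59 ± 0.20 (SE; adjusted p = 0.270, limma). Rhob, a small GTPase gene, measured -0.42 ± 0.15 (SE; adjusted p = 0.284, limma).

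Genes upstream of Egr1 did not pass either. Of 25 kinases, adaptors and SRF partners listed, 9 were measured, and Srf and the ternary complex factors were not among them. The median was -0.095, with 3 above 0 and 6 below, and 2 had an unadjusted p under 0.05 (limma; 13.8% of all probe sets). The stress kinase gene Mapk9 measured -0.68 ± 0.14 (SE; adjusted p = 0.0997, limma), the EGF receptor gene Egfr -0.57 ± 0.18 (SE; adjusted p = 0.252, limma) and Creb1, which encodes CREB, -0.37 ± 0.18 (SE; adjusted p = 0.463, limma). Transcript levels do not report the activity of these kinases. Creb1 was dim, at 2.88 to 3.50 over the 5 arrays, where the lower quartiles of all probe sets were 2.84 to 2.93.

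Downstream of Egr1, 14 of 20 listed corepressors and targets were measured, 6 above 0 and 8 below, with a median of -0.074. The adhesion molecule gene Icam1 was at -0.37 ± 0.13 (SE; adjusted p = 0.300, limma), the phosphatase gene Ptpn1 at -0.31 ± 0.12 (SE; adjusted p = 0.332, limma) and Hsd11b2, whose product inactivates glucocorticoids, at -0.37 ± 0.17 (SE; adjusted p = 0.425, limma). Nab1, a corepressor that binds Egr1 (chosen after its value was seen), was at 0.16 ± 0.24 (SE). No gene of this list passed, and all 14 lay between -0.37 and 0.19, with 2 at an unadjusted p under 0.05 (limma; 13.8% of all probe sets).

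Among partners of AP-1 and other bZIP genes, 14 of 21 were measured, 8 above 0 and 6 below, with a median of 0.097. None passed, and 5 had an unadjusted p under 0.05 (limma; 13.8% of all probe sets). Xbp1, a factor of the unfolded protein response, was at 10.50, 10.69 and 10.50 in PD, against 11.42 and 11.21 on the congenic arrays, without overlap (0.75 ± 0.13 SE; adjusted p = 0.0804, limma). It passed after centring on array medians (adjusted p = 0.0494, limma) and in 3 other fits. The hepatic bZIP gene Creb3l3 measured 0.58 ± 0.14 (SE; adjusted p = 0.161, limma) and Atf4, a mediator of the integrated stress response, -0.43 ± 0.13 (SE; adjusted p = 0.231, limma).

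The single list with called genes was that of heat shock and handling stress, in which 5 of 12 genes were measured, 1 rose, 1 fell and 3 did not pass. Across the array 0.932% of probe sets were called. Of the 5, 4 had an unadjusted p under 0.05 (limma; 13.8% of all probe sets). None of the 5 overlapped between strains: Hsph1, Hspb1 and Dnaja1 were higher in the congenic strain, Hmox1 and Hspa5 lower. Of all probe sets, 31.9% had no overlap. Hsph1, a large chaperone of the Hsp110 family, was at 7.42, 7.42 and 7.80 in PD, against 8.79 and 8.86 on the congenic arrays (1.28 ± 0.16 SE; adjusted p = 0.0392, limma). Hmox1, haem oxygenase, was at 7.80, 7.57 and 7.86 in PD, against 6.82 and 6.74 on the congenic arrays (-0.97 ± 0.14 SE; adjusted p = 0.0489, limma). The 2 called genes thus moved in opposite directions. Hmox1 did not pass after centring (adjusted p = 0.0747, limma), after quantile normalisation (adjusted p = 0.0888, limma) or with the replicate block (adjusted p = 0.0619, limma). Hsph1 passed in each of these fits. The small chaperone gene Hspb1 measured 2.04 ± 0.36 (SE; adjusted p = 0.0784, limma), Dnaja1 0.71 ± 0.17 (SE; adjusted p = 0.148, limma) and the endoplasmic reticulum chaperone gene Hspa5 -0.12 ± 0.12 (SE; adjusted p = 0.745, limma). Hsph1 did not pass in any of the 5 fits that left out 1 array, at log2 differences of 1.22 to 1.41, and Hmox1 passed without PD array 2 alone among these, at -1.05 to -0.90. Whether the Egr1 difference is tied to that of these genes was not tested.

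**Figure D4:**
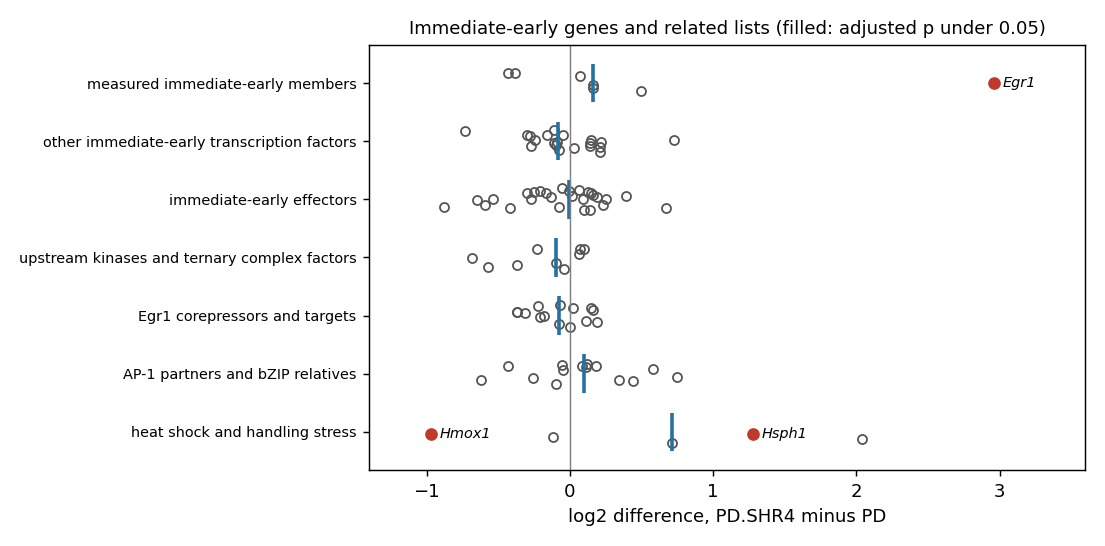
Log2 difference (horizontal axis, PD.SHR4 minus PD) of every measured gene in the immediate-early group and in 6 related lists, 1 point per gene, jittered vertically, with the list median as a bar. Filled points passed limma at an adjusted p under 0.05: Egr1, Hsph1 and Hmox1.

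Hepatocyte markers were at high levels on all arrays, with Alb, albumin, between 13.16 and 13.27, and 10 measured markers had a median difference of 0.040. Of these 10, 6 were above 0 and 4 below, none passed and 1 had an unadjusted p under 0.05 (limma; 13.8% of all probe sets). That marker was Tat, chosen after its value was seen, at -0.61 ± 0.21 (SE). Differences of most immune and erythroid markers were below 0, that is, lower in the congenic strain, where Egr1 was higher. Of 9 measured Kupffer and macrophage markers, 8 were below 0, none passed and 6 had an unadjusted p under 0.05 (limma; 13.8% of all probe sets). Among these 9, chosen after their values were seen, Clec4f was at -0.079 ± 0.13 (SE) with overlapping arrays and Lyz2 at 0.16 ± 0.12 (SE). The summed linear signal of the 9 was 5830 to 6632 in PD and 5064 to 5160 in the congenic arrays. Of 9 lymphocyte markers, 8 were below 0, none passed and 6 had an unadjusted p under 0.05 (limma; 13.8% of all probe sets). The sums were 394 to 495 (PD) and 275 to 290 (congenic). All 3 neutrophil and both erythroid markers were below 0. Of 8 stellate cell and fibroblast markers, 5 were below 0, and 1 of 2 cholangiocyte markers was. None of the 9 listed endothelial markers was measured. Without detection calls no marker could be called absent, and the part of cell composition in the Egr1 difference was not tested.

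The genes whose profiles over the 5 arrays were most like that of Egr1 were sought by distance. Likeness was the Euclidean distance between log2 profiles, each centred on its own mean, over 7589 genes, and since profiles were not scaled, this choice fixes both the direction and the approximate size of the difference. The nearest was Abcg5, a sterol transporter gene, at a distance of 0.76, at 5.47, 5.93 and 5.57 in PD, against 8.12 and 8.31 on the congenic arrays. Then came the steroid dehydrogenase gene Hsd17b2 (0.85), the clock gene Per3 (0.88), the steroid hydroxylase gene Cyp17a1 (1.23) and Dhrs7l1 (1.24), a dehydrogenase-reductase family gene. Abcg5, Per3 and Cyp17a1 were called, and Hsd17b2 (adjusted p = 0.0609, limma) and Dhrs7l1 (adjusted p = 0.084, limma) were not. Both uncalled genes were lower on PD array 3, at 7.96 and 8.05, than on PD arrays 1 and 2, at 9.13 to 9.53. For Jun the nearest were Mad2l1bp, whose product takes part in silencing the spindle checkpoint, the oncostatin M receptor gene Osmr and the co-chaperone gene Bag5, at distances of 0.08, 0.08 and 0.09.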

How the data were processed

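Expression was measured on Affymetrix Rat Exon 1.0 ST arrays. The deposited values are log2 expression per probe set, which the authors computed with RMA in Expression Console at the core-gene level, per the labels. RMA and Partek are the tools listed in the submitters' processing notes. The sources used here give neither versions, nor an annotation release, nor a genome build. RMA corrects background, quantile-normalises arrays and summarises probes robustly, which can pull a shared shift of many genes towards 0. Its values carry no detection calls. Array medians were 5.21 to 5.38. Pairs of arrays within a strain had r = 0.988 to 0.994 over all probe sets. Precision is limited by the number of arrays. Because cDNA was pooled by strain, the SEs, intervals and p-values do not include the variation between rats.

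Gene symbols came from GEO's platform annotation. Of 8797, 7603 had 1 symbol, 409 several and 785 none there. Of the 7603, 7584 matched RefSeq by gene ID. The brightest probe set stood for each of 14 genes with several. The strain difference was fitted by limma 3.58.1 under R 4.3.3 (all 5 arrays, no covariate, two-sided, adjusted by Benjamini-Hochberg over all probe sets). The fit was tested on simulated data. After adjustment 82 probe sets passed, and 1211 had an unadjusted p under 0.05. Named genes were all members, list genes past the threshold with up to 3 more by smallest p, and the profiles nearest to Egr1 and Jun. Others are marked. Members and lists were chosen with earlier results of these data known. Where a group was left with 1 array, it was assumed to vary like the other group. As alternatives, each array was left out in turn, the replicate number was used as a block, and the fit was run after centring, quantile normalisation once more or removal of the dimmest 25%, and with an intensity trend with robust shrinkage, no shrinkage or array weights.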

Additional observations from a re-analysis of the deposited data

How the results depend on the processing

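The Egr1 log2 difference stayed between 2.74 and 3.29 over 12 alternative fits and was called in 8 of them. The median of the 7 genes ran from -0.0070 to 0.18 when 1 array was left out and from 0.062 to 0.21 otherwise. Ier2 and Klf6 changed sign without 1 array, at -0.091 and -0.023 at the lowest. The count of 82 called probe sets was 0 to 55 without 1 array, 163 with the replicate block, 149 without the dimmest 25%, 151 with an intensity trend and robust shrinkage, 2 with no variance shrinkage and 819 with array weights. The wider immediate-early factors had 0 calls in every fit that kept at least 2 arrays per strain. Array weights called 819 of all 8797 probe sets. In that fit the effector list had 2 of 27 genes called, the upstream list 1 of 9 and the Egr1 target list 1 of 14. The AP-1 partner list had 5 of 14 and the stress list 4 of 5. The AP-1 partner list had 1 call, Xbp1, after centring, after quantile normalisation and with the intensity trend. These fits called 100, 112 and 151 of all probe sets. The stress list had 2 calls in the main comparison, 1 after centring and 1 after quantile normalisation, 0 with no variance shrinkage and 0 to 1 without 1 array. The cause of these shifts was not tested. Whether same-numbered arrays of the 2 strains belong together could not be decided. Their deviations correlated at r = 0.050 and 0.082, and those of the other pairs at -0.082 to 0.047. With 2 congenic arrays the deviations are equal and opposite by construction, so these values are not independent. With the replicate number as a block, Egr1 was at 2.75. Every gene of the group had a single probe set among the deposited values, so there were no further ones of a gene to average. These values were already summarised at the core-gene level, and that step was not varied. The median residual SD of the 7 genes was 0.34, 0.30 after centring and 0.26 after quantile normalisation.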
